A study of Mus musculus with 16 samples.

Results

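Osteoclasts are the large, multinucleated cells that resorb bone, and 10 genes that mark their formation and work were followed in cortical bone and skeletal muscle of aged female mice given BAY2416964 (BAY) or vehicle (VEH). The members were taken by symbol, in a set chosen with earlier results of these data known. They were Acp5, Ctsk, Car2 and Atp6v0d2 for resorption, Dcstamp and Ocstamp for cell fusion, Tnfrsf11a, Oscar and Calcr as receptors, and Nfatc1 as the lineage's transcription factor. All 10 were among the 38933 genes of the cortical bone table, and 7 were among the 21011 genes of the skeletal muscle table. BAY is an orally active antagonist of the aryl hydrocarbon receptor (AhR), a ligand-activated transcription factor that binds tryptophan metabolites such as kynurenine. The question for these genes was whether their RNA differed between BAY-treated and VEH-treated mice.

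All animals were female C57BL/6 mice of 18 months at the start, with no engineered allele. BAY was gavaged at 30 mg/kg in an ethanol, Solutol and water carrier on 5 days a week for 8 weeks, and VEH mice received the carrier alone. Each tissue had 4 BAY and 4 VEH libraries, and both groups also received calcein, a label of forming bone. The bone libraries came from shafts of long bone from which marrow cells had been taken out and which had been digested with collagenase before RNA extraction, so RNA of cells lost in these steps was not measured. The libraries came from mice of 1 sex and 1 strain, with 1 dose of BAY. Below, VEH1 to VEH4 and BAY1 to BAY4 name the libraries by group and replicate number, and the numbers of the 2 groups or tissues were not treated as pairs.

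Osteoclasts form from cells of the monocyte and macrophage lineage under M-CSF and RANKL. RANKL binds RANK, the product of Tnfrsf11a, and with costimulation through immunoreceptors such as OSCAR it switches on NFATc1, which in turn drives the genes of fusion and resorption. DC-STAMP and OC-STAMP are membrane proteins needed for precursor cells to fuse. The mature cell seals off a pit, acidifies it with protons that carbonic anhydrase II supplies and the vacuolar ATPase (whose d2 subunit is Atp6v0d2) pumps, and digests collagen there with cathepsin K. Tartrate-resistant acid phosphatase, from Acp5, is the classical stain of the cell, and the calcitonin receptor, from Calcr, is the receptor through which calcitonin stops resorption.

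The libraries of cortical bone differed widely before any comparison of treatment. Reads on genes ranged from 930305 in BAY4 to 6951680 in VEH1, so that 1 read was worth 0.144 to 1.07 CPM (read counts scaled to the library total), and a count of 3 reads, taken as the floor, 0.432 to 3.22 CPM. The median gene of a library stood at 0.575 CPM in VEH1 and at 14.4 CPM in BAY4. The 1355 olfactory receptor genes, which serve olfactory neurons, took from 0.0513% of the CPM in VEH1 to 3.52% in BAY4. A list of 12 osteoblast and osteocyte genes, led by Col1a1, summed to 31523, 23074 and 23361 CPM in VEH3, VEH4 and BAY3 and to 1582 to 7500 CPM in the other 5 libraries. A list of 10 skeletal muscle genes, led by Myh4, summed to 33209 and 36400 CPM in BAY1 and BAY2, to 8797 CPM in VEH1 and to 1261 CPM or less elsewhere. The 10 osteoclast genes together summed to 235, 201, 692 and 820 CPM in VEH1 to VEH4 and to 134, 139, 904 and 276 CPM in BAY1 to BAY4. VEH3, VEH4 and BAY3 were therefore the libraries richest both in bone matrix genes and in the osteoclast genes, and they fall in both treatment groups. In bulk tissue, fewer cells of a type and less RNA per cell cannot be told apart.

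**Figure D1:**
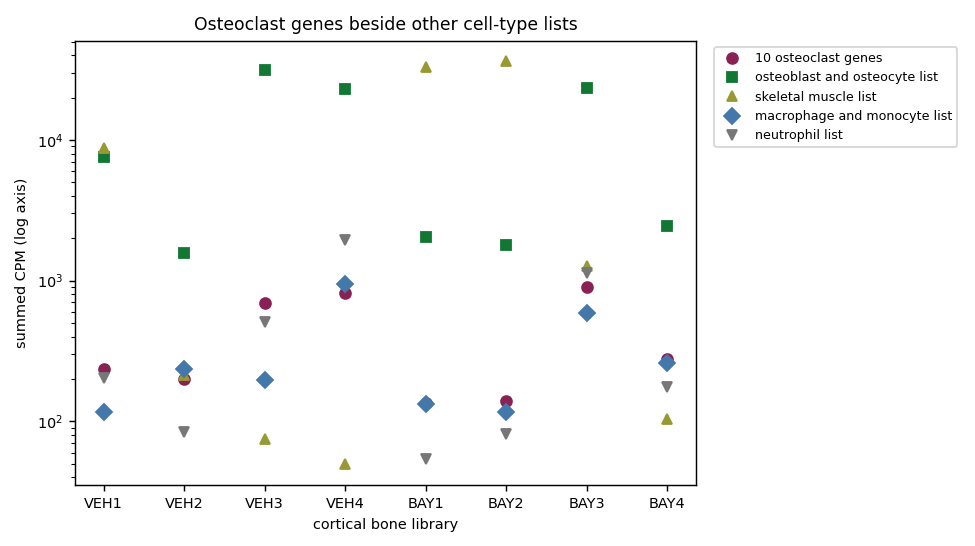
Summed CPM (log axis) of the 10 osteoclast genes and of 4 lists of other cell types in each of the 8 cortical bone libraries, 1 point per list and library. The osteoclast sum was highest in VEH3, VEH4 and BAY3 (692 to 904 CPM), where the osteoblast and osteocyte list was also highest, while the muscle list was highest in BAY1 and BAY2.

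Sequences just upstream of the genes, as the files place them, are shown for 4 members. Acp5 and Oscar were chosen because they varied apart across the bone libraries, and Calcr because it varied with Oscar. Tnfrsf11a was the 1 member whose window held the core to which AhR binds. RefSeq windows (GRCm38.p6) were matched for 5 of the 10 members: Tnfrsf11a, Ctsk, Calcr, Oscar and Acp5. Ocstamp, Dcstamp, Nfatc1, Car2 and Atp6v0d2 were not matched. In the 250 bases before each annotated start, both strands were searched for the AhR core GCGTG, the AP-1 site TGANTCA, the NFAT core GGAAA and the E-box CACATG of MITF and its relatives. The printed stretches carry coordinates from an exact match in GRCm39, the build of the files, are written 5′ to 3′ on the strand of the gene, and leave out every base that GENCODE vM39 annotates as exon. In GENCODE vM39 the Oscar stretch lies within the gene Oscar, outside its exons. The Calcr window overlaps the gene Gm33576 and the Acp5 window the gene 6530413G14Rik, both on the opposite strand. Capitals mark matches of these motifs on either strand.
Acp5 (chr9:22047069-22047292, minus strand, 61 bases before the gene as the files place it): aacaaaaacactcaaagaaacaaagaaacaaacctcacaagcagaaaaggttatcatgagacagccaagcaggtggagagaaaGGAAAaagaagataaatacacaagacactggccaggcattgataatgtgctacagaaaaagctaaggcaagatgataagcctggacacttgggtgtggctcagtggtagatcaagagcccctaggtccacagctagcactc
Oscar (chr7:3619157-3619406, minus strand, ending just before the gene as the files place it): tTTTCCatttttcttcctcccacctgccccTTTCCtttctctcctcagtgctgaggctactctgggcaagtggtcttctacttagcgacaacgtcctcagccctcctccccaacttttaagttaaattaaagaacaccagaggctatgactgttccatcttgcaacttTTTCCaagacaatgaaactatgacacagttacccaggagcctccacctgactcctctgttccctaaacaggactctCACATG
Calcr (chr6:3764715-3764963, minus strand, ending just before the gene as the files place it): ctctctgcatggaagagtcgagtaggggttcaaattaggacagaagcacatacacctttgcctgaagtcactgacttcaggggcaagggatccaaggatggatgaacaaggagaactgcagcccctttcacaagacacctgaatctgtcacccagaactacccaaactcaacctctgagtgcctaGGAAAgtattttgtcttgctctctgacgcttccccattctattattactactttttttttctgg
Tnfrsf11a (chr1:105708198-105708357, plus strand, 85 bases before the gene as the files place it): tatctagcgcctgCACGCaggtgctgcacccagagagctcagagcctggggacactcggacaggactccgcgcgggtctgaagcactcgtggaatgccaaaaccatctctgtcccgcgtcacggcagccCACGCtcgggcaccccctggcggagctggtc

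The AhR core appeared 2 times, both in the Tnfrsf11a window and both on the opposite strand, so in 1 of the 8 windows of the 5 members, against 28.2% of the 32851 windows in the table. The NFAT core was found in 5 of 8 windows, of Acp5, Oscar and Calcr, against 55.6% of all windows, and in Oscar it occurred 3 times. The E-box was found in 2 of 8 windows, in Oscar as the last 6 bases of the window and in Acp5 in a window of another annotated start, against 12.3% of all windows. The AP-1 site was found in 0 of 8 windows, against 6.75% of all windows. The Ctsk window held none of the 4 motifs and is not printed, since all of it is annotated as exon. These are matches of letters and not sites of binding.

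Ctsk and Acp5 had the highest means per length of transcript over the 8 bone libraries. Cathepsin K, which cuts collagen in the pit, averaged 60.5 ± 58.0 CPM per kb (SD, n = 8) over the bone libraries, and Acp5 averaged 52.9 ± 55.8 CPM per kb (SD, n = 8). Nfatc1 followed at 15.2 ± 8.59 CPM per kb, Atp6v0d2 at 13.7 ± 9.54 and Car2 at 9.62 ± 7.32. This order did not hold in each library. Nfatc1, at 12.0 CPM per kb, was above Ctsk (9.24) and Acp5 (8.53) in VEH2, and it was above Acp5 in BAY1 (8.08 against 6.02) and BAY2 (9.91 against 6.44). Ocstamp stood at 4.92 ± 2.57 CPM per kb, Oscar at 4.43 ± 3.26, Tnfrsf11a at 3.29 ± 2.13, Dcstamp at 2.65 ± 1.82 and Calcr at 1.60 ± 1.41 (SD, n = 8 for each). Neighbours in this order differed by less than the SD of either, except Acp5 and Nfatc1, and Car2 and Ocstamp, which differed by more than the SD of the lower gene but less than that of the higher. All 10 members had reads in all 8 bone libraries, and Calcr rested on only 2 to 15 reads in each.

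Acp5 (ENSMUSG00000001348, chromosome 9, 22038023 to 22047007 in mm39) read 59.4, 20.3, 249 and 263 CPM in VEH1 to VEH4 and 14.3, 15.3, 334 and 50.5 CPM in BAY1 to BAY4. It was above 240 CPM in VEH3, VEH4 and BAY3 and below 60 CPM in the other 5 libraries, so the groups overlapped over nearly their whole range. The fitted difference, BAY minus VEH, was -1.10 ± 1.05 on the log2 scale (SE, 4 libraries per group; limma, Benjamini-Hochberg adjusted p = 0.887; exact permutation p = 0.40). Ctsk (ENSMUSG00000028111, chromosome 3, 95406567 to 95416673) read 78.7, 17.5, 193 and 249 CPM in VEH1 to VEH4 and 29.5, 19.9, 283 and 45.1 CPM in BAY1 to BAY4. It was high in the same 3 libraries, and its difference of -0.79 ± 0.95 log2 was smaller than its SE (exact permutation p = 0.543). Within a library the 2 enzymes kept close to one another, with 0.485 to 1.29 units of Acp5 for each unit of Ctsk in CPM.

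Car2 (ENSMUSG00000027562, chromosome 3, 14951333 to 14965830), which encodes carbonic anhydrase II, read 36.2, 7.36, 16.7 and 43.7 CPM in VEH1 to VEH4 and 8.05, 12.8, 20.9 and 4.30 CPM in BAY1 to BAY4. VEH1 was its second highest library. Its difference of -1.10 ± 0.81 log2 had the lowest P value of the members in limma (adjusted p = 0.887) and the lowest exact permutation p (0.229). Car2 is also a gene of red cells, and across the 8 libraries it correlated with the summed CPM of 6 erythroid genes, led by Hbb-bs (r = 0.91, exact permutation p = 0.00218, adjusted over 150 relations to p = 0.0156; rho = 0.88). Without the 2 libraries farthest from the median of the erythroid sum, r was 0.89. Whether erythroid RNA has a part in the Car2 values was not tested. Atp6v0d2 (ENSMUSG00000028238, chromosome 4, 19876841 to 19922605), for the d2 subunit of the proton pump, read 16.1, 21.2, 49.3 and 62.6 CPM in VEH and 9.83, 11.2, 72.8 and 36.5 CPM in BAY. It was again highest in VEH3, VEH4 and BAY3, and its difference was -0.46 ± 0.77 log2 (exact permutation p = 0.60).

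**Figure D2:**
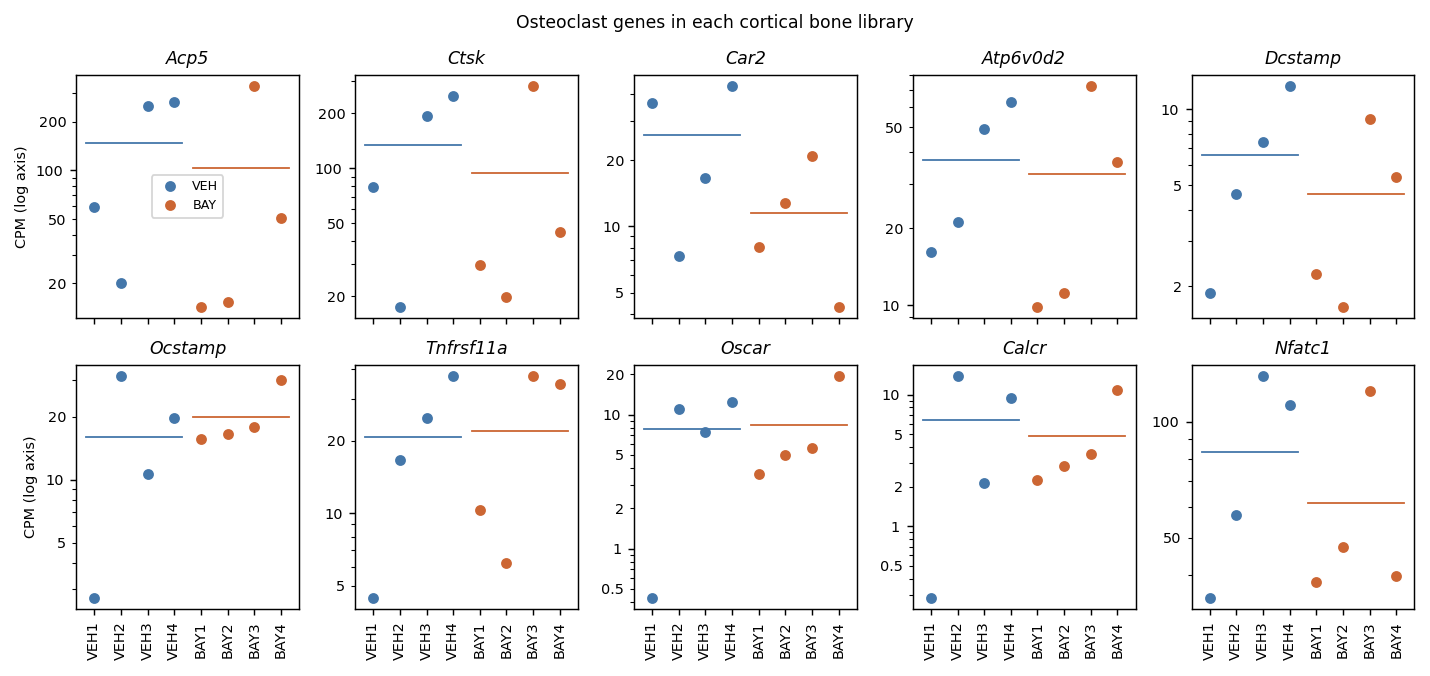
CPM (log axis) of each osteoclast gene in the 4 VEH and 4 BAY cortical bone libraries, 1 point per library, with lines at the group means. Acp5, Ctsk, Atp6v0d2, Dcstamp and Nfatc1 were each higher in VEH3, VEH4 and BAY3 than in the other 5 libraries, and in every panel the groups overlap.

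The 2 fusion genes did not move alike. Dcstamp (ENSMUSG00000022303, chromosome 15, 39609326 to 39624334) read 1.87, 4.60, 7.44 and 12.4 CPM in VEH1 to VEH4 and 2.24, 1.65, 9.17 and 5.37 CPM in BAY1 to BAY4. Like the enzymes it was highest in VEH3, VEH4 and BAY3, and its difference was -0.53 ± 1.16 log2 (exact permutation p = 0.571). Ocstamp (ENSMUSG00000027670, chromosome 2, 165235680 to 165242325) read 2.73, 31.3, 10.6 and 19.7 CPM in VEH and 15.6, 16.5, 17.8 and 30.1 CPM in BAY. Its 2 highest libraries, VEH2 and BAY4, were not those of Dcstamp, and its difference was 0.74 ± 0.82 log2 (exact permutation p = 0.514). The ratio of Ocstamp to Dcstamp in CPM was 1.46, 6.80, 1.43 and 1.59 in VEH1 to VEH4 and 7, 10, 1.94 and 5.60 in BAY1 to BAY4, and the groups overlapped (exact permutation p = 0.0857, adjusted over 13 ratios to p = 0.54, n = 4 per group). This permutation test is two-sided, and the smallest exact p that 4 against 4 libraries allow is 0.0286.

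Of the receptors, Tnfrsf11a (ENSMUSG00000026321, chromosome 1, 105708443 to 105775709), which encodes RANK, read 4.46, 16.6, 24.8 and 37.1 CPM in VEH1 to VEH4 and 10.3, 6.20, 37.2 and 34.4 CPM in BAY1 to BAY4. The groups spanned nearly the same range, and the difference was 0.07 ± 0.86 log2 (exact permutation p = 0.971). Oscar (ENSMUSG00000054594, chromosome 7, 3612812 to 3619156), for the costimulatory receptor, read 0.432, 11, 7.44 and 12.4 CPM in VEH and 3.58, 4.96, 5.60 and 19.3 CPM in BAY. VEH1, where it was at the floor of 3 reads, and BAY4 were its extremes, and its difference was 0.53 ± 1.26 log2 (exact permutation p = 0.80). Calcr (ENSMUSG00000023964, chromosome 6, 3685680 to 3764714), for the calcitonin receptor, read 0.288, 13.8, 2.13 and 9.46 CPM in VEH and 2.24, 2.89, 3.56 and 10.7 CPM in BAY. It was high in VEH2, VEH4 and BAY4, and its difference of 0.41 ± 1.48 log2 (exact permutation p = 0.743) was the least precise of the 10.

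Nfatc1 (ENSMUSG00000033016, chromosome 18, 80649420 to 80756286) read 35, 57.1, 131 and 111 CPM in VEH1 to VEH4 and 38.4, 47.1, 120 and 39.8 CPM in BAY1 to BAY4. The same 3 libraries were highest, the others lay between 35 and 57.1 CPM, and the difference was -0.44 ± 0.61 log2 (exact permutation p = 0.486). Nfatc1 had the narrowest range of the members, with 3.75 times as many CPM in its highest as in its lowest library, against 23.4 times for Acp5 and 48.0 times for Calcr.

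Taken over the members, 0 of 10 were called in cortical bone by limma, for which a change of 2 times or more with an unadjusted P value under 0.05 was asked, a threshold that 0.64% of all genes passed. 0 of 10 had a P value under 0.05, and adjusted p values ran from 0.887 to 1.00. Groups did not overlap for 0 of 10 members, against 0.406% of all genes. In a limma-voom fit of recovered reads, again 0 of 10 were called, against 3.68% of all genes. 6 members had a lower and 4 a higher mean in BAY, with a median of -0.45 log2 beside 0.84 log2 for the median gene of the table, and SEs of the single members of 0.61 to 1.48 log2. Among genes called in the table, 212 were higher and 37 lower in BAY. Leaving out BAY3, the only BAY library with high Acp5, gave 1 called member, Acp5 at -2.08 log2, against 0.123% of all genes called lower without that library.

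Since the median gene differed so much between libraries, the comparison was repeated with each library's values centred on its own median. All 10 members then had a lower mean in BAY, from -2.0 ± 1.44 log2 for Acp5 to -0.15 ± 0.37 log2 for Ocstamp, and their median was -1.34 log2 beside -0.06 log2 for all genes. Other cell lists had lower centred means too: every gene of the osteoblast and osteocyte (12), macrophage and monocyte (10), neutrophil (7), erythroid (6), endothelial (5) and cartilage (5) lists had a lower mean in BAY, with list medians of -2.08 to -0.70 log2 and 0 genes called. Of the members, 0 of 10 were called, against 1.16% of all genes, and 0 of 10 had groups that did not overlap, against 1.58% of all genes. The lowest P value was that of Dcstamp (-1.42 ± 0.85 log2, limma, adjusted p = 0.775), and exact permutation p values ran from 0.229 to 0.629. With centring, the calls over all genes changed from 37 to 162 lower and from 212 to 290 higher genes. This balance turned with the scale: centred log2(CPM + 1) values gave 41 higher and 443 lower genes, and voom on uncentred reads 1431 higher and 2 lower.

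The centred result hung on single libraries. Without VEH2, whose median gene stood at 12.9 CPM and whose Acp5 was only 1.57 times that median, 7 of 10 members were called lower in BAY: Acp5 (-3.32), Car2 (-3.07), Ctsk (-3.05), Atp6v0d2 (-2.13), Dcstamp (-2.07), Nfatc1 (-2.03) and Tnfrsf11a (-1.40 log2). Without that library 7.75% of all genes were called lower in BAY. Without BAY3, 3 members were called, Acp5, Dcstamp and Atp6v0d2, against 1.84% of all genes lower. Without both VEH2 and BAY4, the libraries with the highest medians in their groups, 5 members were called (Acp5, Ctsk, Dcstamp, Car2 and Atp6v0d2), against 3.08% of all genes lower. Without the 3 libraries rich in muscle genes, VEH1, BAY1 and BAY2, Acp5 stood at 0.24, Ctsk at 0.26 and Atp6v0d2 at 0.36 log2 as deposited, while Dcstamp (-0.0979), Nfatc1 (-0.44) and Car2 (-0.89) stayed negative, with 0 of 10 members and 236 of 38933 genes called. BAY1 and BAY2 also held the lowest summed osteoclast values of the BAY group, so leaving them out raised the BAY mean by construction. Muscle genes were high in those 3 libraries and not in BAY4, which was below VEH2. Of the 10 on the list, 10 had a higher mean in BAY as deposited with 1 called, and centred 8 had a higher mean with 0 called. Their part in the osteoclast values was not tested.

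**Figure D3:**
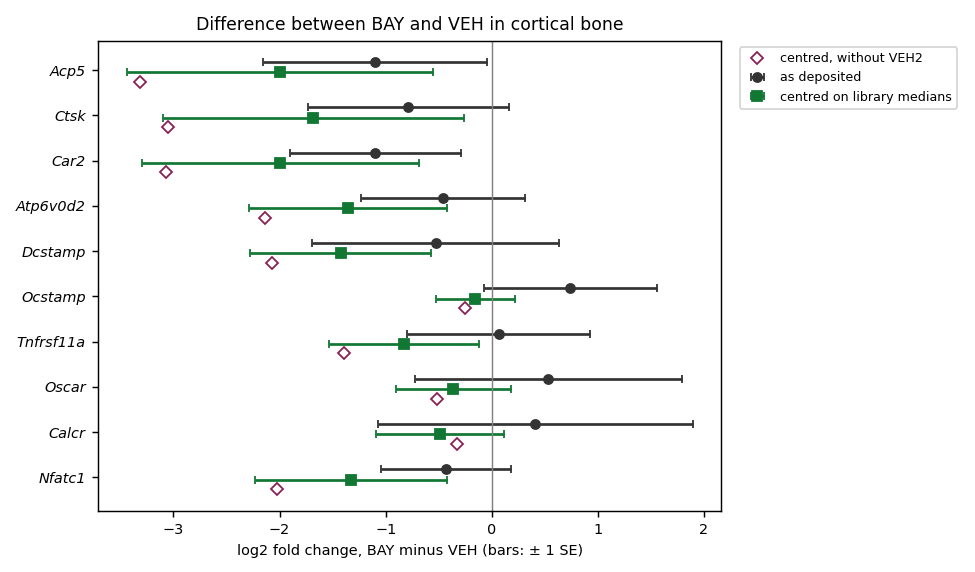
Log2 fold change of each osteoclast gene in cortical bone, BAY minus VEH, as deposited (circles) and with libraries centred on their medians (squares), with bars of 1 SE from limma (4 libraries per group), and centred without VEH2 (open diamonds, no bar). Centred values lay below the deposited ones for all 10 genes, and 7 of the 10 diamonds passed the call threshold.

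Relative to Col1a1, the chain of type I collagen that osteoblasts make, the direction turned. The ratio of Ctsk to Col1a1 in CPM was 0.0195, 0.0224, 0.0117 and 0.0190 in VEH1 to VEH4 and 0.0258, 0.0211, 0.0220 and 0.0410 in BAY1 to BAY4. It varied 3.52 times between its extremes, against 16.2 times for Ctsk itself, and all 4 BAY ratios were above those of VEH1, VEH3 and VEH4, but only BAY1 and BAY4 were above VEH2 (difference in means 0.58 log2, exact permutation p = 0.0857, adjusted over 13 ratios to p = 0.54, n = 4 per group). The ratio of Acp5 to Col1a1 ran from 0.0125 to 0.0459. All 10 members had a higher mean ratio to Col1a1 in BAY, by 0.27 to 2.11 log2, and 0 of 10 had groups that did not overlap. The ratio was chosen after the values were seen, and all 10 ratios share the Col1a1 values, whose mean was lower in BAY. Any gene with a deposited difference above that of Col1a1 gets a positive difference in such a ratio. As deposited, the median gene stood at 0.84 log2, above the -0.45 log2 of the median over members. The ratio was not computed for all genes, so no share stands beside these counts.

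Across the 8 bone libraries, the members were compared in pairs. Of the 45 pairs on log2(CPM + 1), 37 correlated positively, and 8 passed an adjusted p of 0.05 by exact permutation. Without BAY4 this fell to 0 pairs, without VEH4 to 3 and without VEH2 to 4, and with any other library left out it was 5 to 7. The coefficients without BAY4 were as large, with a median r of 0.65 against 0.60, 15 pairs against 16 at an unadjusted exact permutation p under 0.05, and r = 0.98 for Acp5 with Ctsk. Acp5 and Ctsk were the closest pair (r = 0.98, rho = 0.90, exact permutation, adjusted p = 0.0145). VEH3, VEH4 and BAY3 stand apart for both genes, and r was 0.95 without VEH4 and BAY3. Dcstamp went with Atp6v0d2 (r = 0.95, exact permutation, adjusted p = 0.0145) and with Tnfrsf11a (r = 0.93, adjusted p = 0.0203), both above 0.90 without the 2 farthest libraries. Oscar, Ocstamp and Calcr correlated with one another, with r of 0.89 to 0.91 in their 3 pairs, and each had an r between -0.25 and 0.16 with Acp5 and Ctsk. For Oscar with Ocstamp, r dropped to 0.48 without VEH1 and BAY4, so that pair rests on those libraries. Of the 21 pairs of the other 7 members, 5 passed, and their r went down to -0.07. On this scale Car2 passed with no other member, at r = 0.68 with Ctsk, 0.60 with Acp5, 0.43 with Nfatc1, 0.33 with Atp6v0d2, 0.26 with Dcstamp, -0.07 with Tnfrsf11a and -0.42 to -0.61 with Calcr, Oscar and Ocstamp, and with centring it passed with Nfatc1 (r = 0.88, exact permutation, adjusted p = 0.0137), Ctsk (r = 0.83, adjusted p = 0.0176) and Dcstamp (r = 0.83, adjusted p = 0.0124). Tnfrsf11a was closer to Oscar (0.79) than to Acp5 (0.66) or Ctsk (0.57).

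Centring changed which pairs passed. With each library centred, 17 of the 45 pairs passed the adjusted p of 0.05, and all 17 were among the 21 pairs of the 7 other members, whose median r was 0.91. The 3 pairs of Oscar, Ocstamp and Calcr then had r of -0.34 to 0.36, and Calcr with Ocstamp changed from 0.91 to -0.34. Centring subtracts 1 number from every gene of a library, so centred values share that term. The division into 7 and 3 was made after the values were seen.

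**Figure D4:**
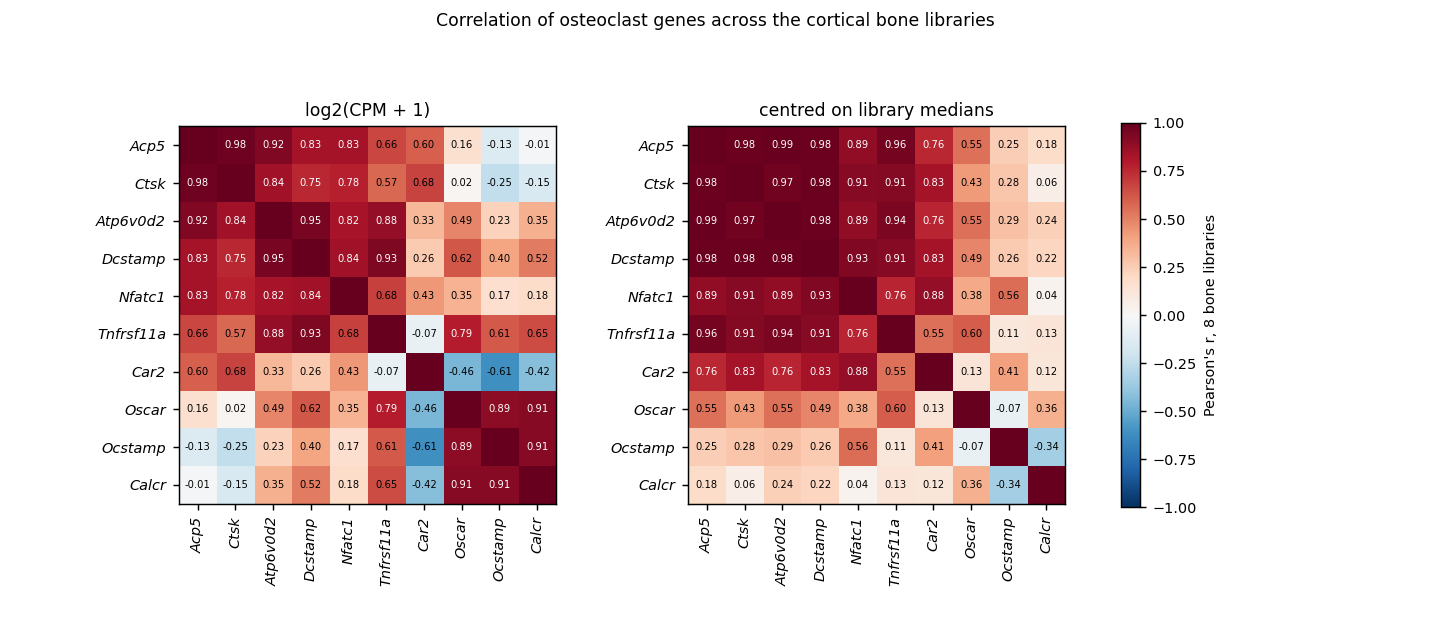
Pearson's r between each pair of osteoclast genes across the 8 cortical bone libraries, on log2(CPM + 1) (left) and with libraries centred on their medians (right), with red for positive and blue for negative values. The block of Oscar, Ocstamp and Calcr at r of 0.89 to 0.91 on the left was gone on the right. There, pairs of the 7 other genes had r of 0.55 to 0.99, and pairs of these with Oscar, Ocstamp or Calcr 0.04 to 0.60.

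Ocstamp, Oscar and Calcr followed the library's median gene. Ocstamp correlated with that median at r = 0.99 (exact permutation, adjusted p = 0.00744), Calcr at r = 0.92 (adjusted p = 0.0077) and Oscar at r = 0.91 (adjusted p = 0.0260), on log2 values of 8 libraries. Without VEH1 and BAY4, the libraries with the extreme medians, r was 0.95, 0.90 and 0.54. Ocstamp was 2.08 to 4.75 times the median gene in every library, Oscar 0.571 to 2.33 times and Calcr 0.357 to 1.07 times. Acp5, in contrast, ranged from 1.57 times the median in VEH2 to 103 times in VEH1, and Ctsk from 1.36 to 137 times in the same libraries. Per kb of transcript, Calcr was at 0.245 to 0.558 times the median olfactory receptor gene in 7 of 8 libraries and at 2.67 times in VEH1, where it had 2 reads. Oscar was at 0.755 to 1.27 times that reference in 6 libraries, and at 3.21 times in VEH3 and 7.71 times in VEH1. Dcstamp was at 0.291 to 0.409 times that reference in VEH2, BAY1, BAY2 and BAY4, and Tnfrsf11a at 0.363 to 0.611 times in the same libraries, so both were below the median olfactory receptor gene there. In the other 4 libraries Dcstamp was at 1.07 to 28.9 times and Tnfrsf11a at 1.05 to 22.5 times. Car2 was at 0.252 times in BAY4 and 0.537 times in VEH2, Ocstamp at 0.936 times in BAY4 and 0.980 times in VEH4, and Nfatc1 at 0.954 times in BAY4. Acp5, Ctsk and Atp6v0d2 were above the reference in all 8 libraries, with lowest values of 1.21, 1.31 and 1.18 times.

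**Figure D5:**
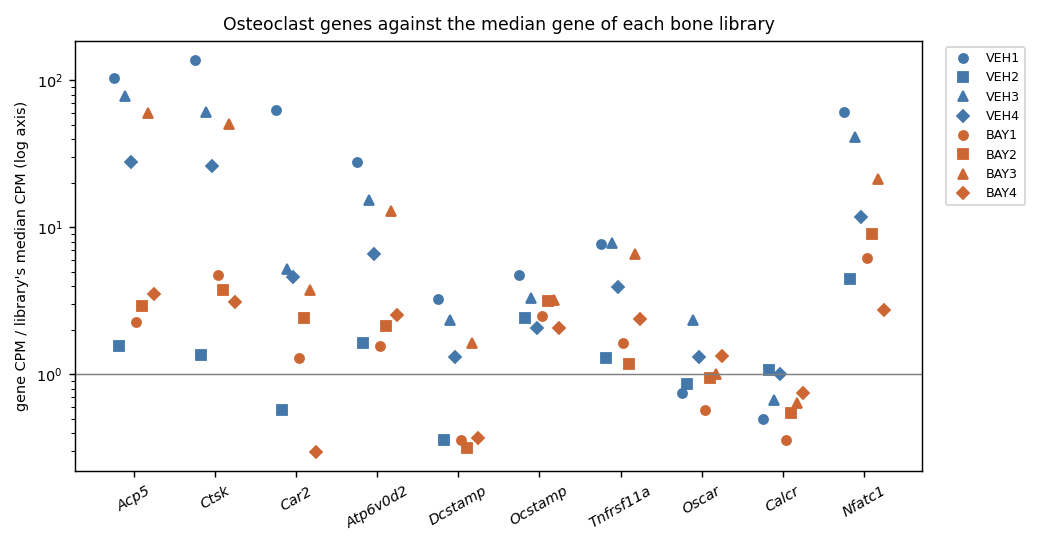
CPM of each osteoclast gene divided by the median CPM over all genes of the same library (log axis), for the 8 cortical bone libraries (blue VEH, orange BAY, marker by replicate), with a line at 1. Acp5 and Ctsk spread from 1.36 to 137 times the median, while Ocstamp, Oscar and Calcr stayed between 0.357 and 4.75 times.

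Acp5 and Ctsk were compared with the lists of other cells in the same way. Ctsk correlated with the summed osteoblast and osteocyte list at r = 0.97 (exact permutation, adjusted p = 0.0077; rho = 0.93), and r was 0.98 without VEH3 and BAY3. Acp5 correlated with it at r = 0.96 (adjusted p = 0.0085; rho = 0.83), and with the 7 neutrophil genes, led by Ngp, also at r = 0.96 (adjusted p = 0.0077; rho = 0.98). Ctsk also correlated with the neutrophil genes, at r = 0.94 (adjusted p = 0.00853), as did Atp6v0d2 at r = 0.90 (adjusted p = 0.0195) and Dcstamp at r = 0.85 (adjusted p = 0.0415). With the 5 cartilage genes, r was 0.91 for Ctsk (adjusted p = 0.0367) and 0.89 for Acp5 (adjusted p = 0.0445). The other resorption genes did not pass with the osteoblast and osteocyte list, Car2 at r = 0.72 (adjusted p = 0.122) and Atp6v0d2 at r = 0.79 (adjusted p = 0.0923). Neutrophil genes summed to 508, 1958 and 1127 CPM in VEH3, VEH4 and BAY3 and to 53.6 to 203 CPM elsewhere. Dcstamp correlated with the 10 macrophage and monocyte genes, led by Lyz2, at r = 0.92 (adjusted p = 0.0077), as did Tnfrsf11a at 0.84 (adjusted p = 0.0382) and Atp6v0d2 at 0.85 (adjusted p = 0.0314), whereas Ctsk did so at 0.68 (adjusted p = 0.138). All 3 had higher coefficients with the 4 B cell genes, at 0.96 for Dcstamp (adjusted p = 0.0077), 0.95 for Tnfrsf11a (adjusted p = 0.0074) and 0.90 for Atp6v0d2 (adjusted p = 0.0239). Tnfrsf11a also correlated with the 5 endothelial genes at r = 0.95 (adjusted p = 0.0077), as did Oscar at 0.86 (adjusted p = 0.0260). Calcr and Ocstamp correlated with the adipocyte genes at r = 0.91 (adjusted p = 0.0151) and 0.81 (adjusted p = 0.0195). The macrophage sum was 117 to 945 CPM, and Cd68 was listed at 0 in BAY4. These p values are exact permutation values over 8 libraries, adjusted over 150 relations of members with library measures. The part of other marrow cells in the osteoclast values was not tested.

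A wider set of 50 osteoclast genes in 4 lists gave the same count. As deposited, 0 of 50 were called in cortical bone and 0 of 50 had a limma P value under 0.05, with 21 higher and 29 lower in BAY, while 0.64% of all genes were called and the median gene stood at 0.84 log2. Centred, 0 of 50 were called, against 1.16% of all genes, with 3 positive and 47 negative differences beside -0.06 log2 for the median gene. Among the 9 ligand and receptor genes, Csf1r, the receptor of M-CSF, averaged 60.2 ± 35.1 CPM in VEH and 36.8 ± 34.4 in BAY (SD, n = 4 each; -0.90 ± 0.70 log2). Trem2 had the highest positive difference of that list (1.20 ± 0.97) and its adaptor Tyrobp the most negative fitted one. Tyrobp read 0.432, 0.921, 13.5 and 22.6 CPM in VEH and 0.894, 0.414, 16.3 and 0 CPM in BAY, and no fold change is given, since the 0 enters the fit as the offset.

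Of the 16 signalling genes, Fos, a partner in AP-1, was the most abundant, at 560 ± 631 CPM in VEH and 322 ± 359 in BAY (SD, n = 4 each). Relb, of the noncanonical NF-κB pathway, stood at 0.96 ± 0.76 log2 and Jdp2, another AP-1 partner, at -0.91 ± 0.79. Of the 15 resorption genes, Mmp9, a gelatinase, was the most abundant, and read 95.7, 36.8, 280 and 443 CPM in VEH1 to VEH4 and 34.0, 34.3, 376 and 55.9 CPM in BAY1 to BAY4. This is again the pattern of high values in VEH3, VEH4 and BAY3. Snx10, a sorting nexin of the resorbing cell, stood at 0.26 ± 0.78 log2, and Mmp14, a membrane-bound collagenase that other bone cells also make, at -1.12 ± 0.69 log2. Without BAY3, Mmp14 and Mmp9 were called, against 0.123% of all genes called lower without BAY3. Without VEH1, Mmp14 alone was called, against 0.134% of all genes called lower without VEH1. Of the 10 adhesion and fusion genes, Cd44 averaged 138 ± 112 CPM in VEH and 80.7 ± 81.5 in BAY, Dock5 stood at 0.44 ± 0.68 log2 and Itgb3, the β3 integrin chain of the sealing zone, at -0.85 ± 0.81.

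The lists of other cells moved as follows in bone. Called genes numbered 0 of 12 for osteoblasts and osteocytes, 0 of 10 for macrophages and monocytes, 0 of 7 for neutrophils, 0 of 6 for erythroid cells, 0 of 6 for adipocytes (led by Fabp4), 0 of 5 for endothelium (led by Kdr), 0 of 5 for cartilage (led by Col2a1) and 0 of 4 for B cells (led by Ighm). In skeletal muscle genes it was 1 of 10, Myl1, at 3.25 log2 higher in BAY. These counts stand beside 0.64% of all genes called. In 4 lists every gene had a lower mean in BAY, with medians of -1.19 log2 for the 12 osteoblast and osteocyte genes, -1.05 for the 7 neutrophil genes, -0.91 for the 6 erythroid genes and -0.72 for the 5 cartilage genes, beside -0.45 for the osteoclast genes and 0.84 for the median gene.

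The genes most like the members' shared pattern were sought among 23950 genes that averaged 5 CPM or more. The mean of the members' standardised log2(CPM + 1) was highest in VEH4 (1.009), BAY3 (0.73) and VEH3 (0.44) and lowest in VEH1 (-0.90). The 8 genes closest to it over the 8 libraries were Hipk1, Slfn4, Lrrc58, Setd2, Nufip2, Smarcc1, Stk17b and Lta4h, at r of 0.989 to 0.994. Hipk1 read 59.6, 114, 166 and 264 CPM in VEH1 to VEH4 and 68.6, 61.6, 196 and 121 CPM in BAY1 to BAY4. It was highest in VEH4 and lowest in VEH1, as the members' standardised mean was. The members' summed CPM was instead highest in BAY3 and lowest in BAY1. None of the 8 is a classical osteoclast gene.

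In skeletal muscle, measured in tibialis anterior, 7 of the 10 members had rows, and Nfatc1 alone was abundant. NFATc1 acts in muscle too, as a calcineurin-dependent factor of the slow fibre programme. It read 45.7, 67.5, 57.9 and 46.9 CPM in VEH1 to VEH4 and 69.2, 62.9, 73.5 and 76.7 CPM in BAY1 to BAY4. 3 of the 4 BAY libraries were above all VEH libraries, and BAY2 lay below VEH2. The difference was 0.39 ± 0.14 log2, a fold of 1.31 (limma P = 0.0156, adjusted p = 0.404; exact permutation p = 0.0571, n = 4 per group), so it did not pass the fold threshold or the adjustment. A P value under 0.05 was reached by 1 of 7 members, against 9.79% of all muscle genes. 0 of 7 members were called, against 2.43% of all genes, and again 0 of 7 with limma-voom on recovered reads, against 3.33%. 0 of 7 had groups that did not overlap, against 5.73%.

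The other 6 members had from 0 to 48 reads per library in muscle. Car2 read 1.86, 1.95, 4.53 and 2.50 CPM in VEH and 2.34, 1.14, 1.81 and 3.09 CPM in BAY (-0.37 ± 0.40 log2), and Tnfrsf11a 1.16, 0.976, 1.30 and 0.835 CPM in VEH and 0.550, 1.79, 0.516 and 0.421 CPM in BAY (-0.63 ± 0.59 log2). Tnfrsf11a was lower in 3 BAY libraries than in any VEH library and highest of all in BAY2. Those 3 libraries held 3 to 4 reads of it, near the floor of 3 reads, against 7 to 12 reads in VEH. Acp5 had 48 reads (5.18 CPM) in VEH3 and 0 to 2 reads in the other 7 libraries. In that same library the 6 adipocyte genes summed to 304 CPM, against 38.6 to 55.9 CPM in the others, and the osteoblast and osteocyte list to 161 CPM, against 33.8 to 56.8 CPM. The part of such tissue in the Acp5 reads was not tested. Ctsk had 0 to 10 reads, Ocstamp 0 to 4 and Calcr 0 to 3, so no fold change is given for these 4 genes. Without VEH4, where Acp5 was listed at 0, Acp5 passed the call threshold as lower in BAY, against 0.895% of all genes. That call sets 2, 1 and 48 reads against 1, 0, 0 and 0 reads, and rests on the small offset that stands in for 0. Levels in muscle and bone were not compared, because the 2 tables were normalised separately.

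Of the 50 wider osteoclast genes, 46 were in the muscle table and 1 was called, against 1.33% of all genes called higher. This was Fos, at 1.63, 1.53, 2.81 and 0.596 CPM in VEH1 to VEH4 and 7.71, 2.12, 9.80 and 7.43 CPM in BAY1 to BAY4. BAY2 lay below VEH3, the other BAY libraries lay above every VEH library, and the difference was 2.04 ± 0.52 log2 (limma, adjusted p = 0.291). Bcl6, Jdp2 and Slc4a2 also had a limma P value under 0.05, at 0.38, 0.61 and 0.38 log2, below the fold threshold. With Fos this made 4 of 46 genes, against 9.79% of all muscle genes. Fos is an early response gene in many cells, muscle fibres included.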

How the data were processed

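RNA-seq of cortical bone and tibialis anterior muscle was analysed, with 4 BAY and 4 VEH libraries per tissue, grouped by the sample labels. Per the labels and methods, the authors trimmed reads, aligned them with STAR 2.7.8a to mm39, counted reads on genes of Ensembl by Partek's E/M method and deposited log2 values of CPM plus an offset. The offset, read from the lowest deposited log2 value, was 0.0001 CPM in bone and 0.0004 CPM in muscle. CPM were recovered by undoing log2 and offset.

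Reads were recovered from the step between low values. 86.3 to 88.4% of bone values up to 50 reads were whole to within 0.02, and 81.4 to 83.5% in muscle. Bone libraries held 930305 to 6951680 and muscle libraries 6131625 to 9261634 reads on genes. The floor of 3 reads takes in no error beyond counting, as PCR copies of 1 molecule are counted apart.

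Treatment groups were compared over all genes of a table with limma 3.58.1 in R 4.3.3 (lmFit, eBayes with trend, two-sided, no filter), with Benjamini-Hochberg adjustment over all genes. Calls used the authors' thresholds (unadjusted P value under 0.05, fold of 2 or more). Differences refer to log2 of CPM plus offset. Single genes were also compared by exact permutation over 70 assignments of the libraries. Correlations used log2(CPM + 1) and exact permutation of pairings, with Benjamini-Hochberg adjustment over 45 pairs or 150 relations. The fits were tested on simulated data. Other steps used Python 3.11.15 with numpy 2.4.6, pandas 2.3.3 and scipy 1.17.1.

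Named besides the members were, per further osteoclast list, the gene highest in bone and those with the largest rise and fall at a mean of at least 1 CPM, every called gene, and the 8 genes most like the members. The members and lists were chosen with earlier results of these data known. Alternatives were another pseudocount, a filter at a mean of 1 CPM, limma-voom, the replicate block and leaving out libraries. Whether the 4 mice of a group were independent beyond being separate mice is not given in the sources used here, and p values measure the spread between these libraries. The column of muscle VEH replicate 3 is named as a replacement, which the sources do not explain.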

Additional observations from a re-analysis of the deposited data

Results flagged for a closer look

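Of 33 groups of 4 libraries tested for an outlying library with Dixon's ratio, 9 were flagged. Chance flags about 1 in 20 groups of independent, normally distributed values, and these skewed CPM of correlated genes in shared libraries are neither. In cortical bone of BAY mice, BAY3 stood far above the rest in Acp5 (334 CPM, next 50.5 CPM), Ctsk (283 CPM, next 45.1 CPM) and Nfatc1 (120 CPM, next 47.1 CPM). In the same group, BAY4 stood above the rest in Calcr (10.7 CPM, next 3.56 CPM), Oscar (19.3 CPM, next 5.60 CPM) and Ocstamp (30.1 CPM, next 17.8 CPM). BAY3 was the BAY library with the highest sum of bone matrix genes, and BAY4 the one with the highest median gene. The 2 sets of genes thus singled out different mice of 1 group.

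In skeletal muscle, Acp5 stood at 5.18 CPM in VEH3, with the next VEH library at 0.233 CPM, and at 0.138 CPM (1 read) in BAY1, where the other BAY libraries were listed at 0. Tnfrsf11a stood at 1.79 CPM in BAY2, with the next BAY library at 0.550 CPM.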

How the results depend on the processing

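The count of called members stayed at 0 as deposited and in muscle, and at 0 centred, under another pseudocount, a filter at a mean of 1 CPM and, uncentred, voom. Leaving out single libraries gave 0 to 1 called members as deposited, 0 to 7 centred, 0 to 1 in muscle, and 0 to 2 of the further osteoclast genes. Centred without VEH2 and BAY4 together it was 5. The number of correlated pairs was 8, 17 with centring and 0 to 7 without 1 library; it fell to 0 without BAY4, where the median r was 0.65 against 0.60. The causes of these shifts were not tested. Over all genes, calls numbered 249 as deposited, 1433 by voom, 82 with the filter and 115 to 1116 without 1 library, and centred 452, 218 with the filter, 186 to 3517 without 1 library and 1484 without VEH2 and BAY4. Muscle calls numbered 510, or 52 on log2(CPM + 1) and 193 with the filter.

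Directions turned as follows, with no value past the threshold. Without 1 library, the differences as deposited ranged over -0.72 to 1.14 log2 for Calcr, -0.60 to 1.011 for Oscar and -0.55 to 0.55 for Tnfrsf11a, and centred over -0.33 to 0.0679 for Ocstamp. Without VEH1, BAY1 and BAY2 the deposited differences were 0.24 for Acp5, 0.26 for Ctsk, 0.36 for Atp6v0d2 and -0.0761 for Calcr, and centred 0.23 for Tnfrsf11a, 0.0560 for Atp6v0d2 and 0.0071 for Ocstamp. Without VEH2 and BAY4, Tnfrsf11a stood at -0.26. Centred on log2(CPM + 1), Ocstamp stood at 0.0669. Over Col1a1, Acp5 stood at 0.27, Ctsk at 0.58, Dcstamp at 0.84, Nfatc1 at 0.94, Car2 at 0.27 and Atp6v0d2 at 0.91. Leaving out libraries jointly and the Col1a1 ratio were added after the data were seen.

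Whether replicate numbers pair the libraries is not settled by these values. Same-numbered bone libraries correlated in their deviations at 0.073, -0.084, 0.486 and 0.192. The best match was the library of the same number for replicates 3 and 4, but not for replicates 1 and 2. With the replicate block, 0 members were called in bone, 0 with centring and 0 in muscle, and 0 further osteoclast genes, beside 305 of 38933, 463 of 38933 (127 higher, 336 lower) and 489 of 21011 genes in all. At 930305 to 6951680 reads, Calcr, Oscar and Dcstamp rest on few reads.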
